A study of Mus musculus with 20 samples.

Results

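The 9 genes described here, Egr1, Egr2, Egr3, Nr4a1, Nr4a2, Ier2, Ier3, Dusp1 and Zfp36, are immediate early genes, followed in mouse fibroblasts that were being reprogrammed toward pluripotency. They were taken by symbol from a deposited table of 15757 genes, and all 9 were found in it. The list was chosen by measured values of these same libraries, namely lower levels in the day 0 knockdown libraries than in the day 0 controls, and lower control levels at day 7 than at day 0. Differences of the 9 genes and of the further gene lists that use a day 0 library or a control library of day 7 are therefore given as descriptions with no test. The tests cover the knockdown against the control at days 1, 3 and 5, and the steps between neighbouring days that use none of those libraries.

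The starting cells were embryonic fibroblasts of OG2 mice at passage 2. They were infected in 2 rounds with retroviral supernatants that contained polybrene, and were then kept in iCD1 medium. Every group received the 4 reprogramming factors Oct4, Sox2, Klf4 and Myc, abbreviated OSKM. The control arm also received shLuci, an shRNA against luciferase, a gene that mouse cells lack, and the knockdown arm received shDdx10, against the DEAD-box RNA helicase Ddx10. Libraries were made from both arms at days 0, 1, 3, 5 and 7 of reprogramming, with 2 in each of the 10 groups, 20 in all. The series text speaks of Ddx10 shRNAs in the plural, no label names a hairpin, and no label says which step of the infection day 0 marks. The replicates are called biological, but no label says that they are separate cultures, and a p-value here measures the spread among these libraries, which may be technical.

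Immediate early genes are transcribed within minutes of a growth factor, serum or stress signal, without the need for new protein, and their RNAs are short-lived. The signal runs through the Ras-ERK kinase cascade and through calcium and cyclic AMP, and reaches the promoters by serum response factor (SRF), which binds the CArG box, and by CREB, which binds the cyclic AMP response element (CRE). Egr1, Egr2 and Egr3 are zinc finger transcription factors, and Nr4a1 and Nr4a2 are orphan nuclear receptors. Ier2 and Ier3 are small proteins named for their rapid induction. Dusp1 removes phosphate from MAP kinases, and Zfp36 (tristetraprolin) binds AU-rich elements and speeds the decay of the RNAs that carry them. In fibroblasts these genes are known from the response to serum, and the fibroblast identity is lost during reprogramming.

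Promoter windows of 4 members are shown because they hold letters that CREB and SRF are known to bind, and they were picked for those letters. In the knockdown, log2 differences from day 0 to day 7 ran from -3.09 to -1.32 in these 4 and from -1.1 to 1.48 in the other members. The other members are not a group without such letters. Egr1, Egr3 and Ier2 had no promoter sequence to search, Zfp36 held a CArG box, and Ier3 alone was searched and held neither. In the control, Egr1 (-2.76), which has no window here, fell more than Nr4a1 (-2.55), Egr2 and Nr4a2. Any link between the letters and the decline was not tested. RefSeq promoter sequences (GRCm38.p6, the assembly known as mm10) were matched for 6 of the 9 members, namely Egr2, Nr4a1, Nr4a2, Ier3, Dusp1 and Zfp36. Each line gives bases before the listed start site, 5′ to 3′ on the gene's strand, with no base that the GENCODE annotation puts in an exon. Capitals mark the CRE core, TGACG or its reverse complement CGTCA, and the CArG box. The Nr4a1 window is chr15:101266596-101266845 on the plus strand, inside the annotated span of the gene, which has a further start upstream. The Nr4a2 window is chr2:57124004-57124253, directly upstream of the gene on the minus strand. The Egr2 window is chr10:67537619-67537868 on the plus strand, at 1 of several listed starts, which was picked after its motifs were seen. Among the other listed Egr2 windows, that before 67535499 held neither a CRE core nor a CArG box, that before 67537566 held a CArG box and no core, and the remaining ones overlap the window shown. The Dusp1 window was shortened to 200 bases, chr17:26508523-26508722 on the minus strand, to leave out exon bases. Like that of Nr4a1, the Egr2 and Dusp1 windows lie inside the annotated spans of their genes, and that of Dusp1 reaches upstream to 26562128.
Nr4a1: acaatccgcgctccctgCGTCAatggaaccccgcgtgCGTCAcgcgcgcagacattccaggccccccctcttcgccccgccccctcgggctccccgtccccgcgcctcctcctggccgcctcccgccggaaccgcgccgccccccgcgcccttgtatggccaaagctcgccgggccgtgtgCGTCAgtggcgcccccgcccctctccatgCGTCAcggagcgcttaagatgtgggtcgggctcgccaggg
Nr4a2: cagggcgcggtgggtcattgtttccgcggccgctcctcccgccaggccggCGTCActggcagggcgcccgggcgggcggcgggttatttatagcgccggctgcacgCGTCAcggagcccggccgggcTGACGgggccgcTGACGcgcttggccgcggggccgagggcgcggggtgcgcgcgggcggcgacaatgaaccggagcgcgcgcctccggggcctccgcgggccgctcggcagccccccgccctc
Egr2: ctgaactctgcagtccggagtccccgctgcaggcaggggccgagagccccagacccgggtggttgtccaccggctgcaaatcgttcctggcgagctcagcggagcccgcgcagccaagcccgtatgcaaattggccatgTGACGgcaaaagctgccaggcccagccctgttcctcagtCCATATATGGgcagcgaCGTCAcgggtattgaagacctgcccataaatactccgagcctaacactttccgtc
Dusp1: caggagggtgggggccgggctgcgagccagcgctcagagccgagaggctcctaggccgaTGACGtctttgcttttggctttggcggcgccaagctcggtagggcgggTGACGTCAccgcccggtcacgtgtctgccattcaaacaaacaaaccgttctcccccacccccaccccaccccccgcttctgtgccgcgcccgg

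The Nr4a1 and Nr4a2 windows each held 4 CRE cores, and the Egr2 window held 2 cores with a CArG box, CCATATATGG, between them. In Dusp1 there were 3 cores, a pair of which overlap to form the full element TGACGTCA, 143 to 136 bases before the start. Searched on both strands of all 32851 RefSeq windows of 250 bases before a start, at least 1 CRE core occurred in 17.8%, 2 or more in 3.90% and 3 or more in 0.688%. The full element occurred in 1.55% and the CArG box in 1.47% of windows. The unshortened Ier3 window held neither a CRE core nor a CArG box, and in that of Zfp36, which lies in annotated exon sequence, a CArG box was found. A match describes the letters in the window and says nothing of whether a factor was bound.

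The values are normalized read counts, that is, reads assigned to a gene after the authors' scaling between libraries. The column sums lay between 15.7 M and 21.3 M, and the spacing of low values corresponds to some 12.1 M to 23.8 M reads in a library. Ddx10, the targeted gene, was lower in both knockdown libraries than in both controls at every day, by 0.62 (day 7) to 1.58 (day 1) on the log2 scale (SE 0.12, limma adjusted p between 8.78e-06 and 0.0072). Replicates lay farthest apart in the control at day 1, where the median gene differed by 0.23 on the log2 scale between the 2 libraries, against 0.10 to 0.14 in the other groups. All 16 fibroblast markers of a fixed list were in the table. Their summed level at day 0 was 595293 to 635213 in the knockdown and 693291 to 741943 in the control, at day 3 it was 264414 to 275652 against 214715 to 226694, and at day 5 it was 233744 to 234039 against 190959 to 213713. Of 16 macrophage and blood markers 15 were present, with sums of 4414 to 4415 in the day 0 knockdown and 3050 to 4401 in the day 0 control. At days 3 and 5 these sums were 1394 to 1480 and 1314 to 1319 in the knockdown against 1182 to 1230 and 1037 to 1189 in the control. The sums mix genes of opposite course. Lyz2 stood at 1593 to 2627 at day 0 and fell as low as 3.83, and C1qa, C1qb and C1qc fell to 0 in a later library. Laptm5 (258 to 403 at day 0) and Cd68 (193 to 234) rose later, to at most 1021 and 396. The later sums are therefore no measure of macrophages. Adipocyte markers (3 of 6) summed to 2141 to 2153 against 1343 to 1435 at day 3, and to 866 to 904 against 584 to 592 at day 5. Most of these sums was Lpl, which reached 2075 in a library. Pparg and Fabp4 were highest at day 0, at 98.7 and 64.1, so the sums describe Lpl more than the list. Epithelial markers (10 of 10) summed to 3280 to 3339 in the knockdown against 5585 to 5683 in the control at day 3, and to 8785 to 9066 against 18718 to 19953 at day 5. Of the fibroblast, macrophage and blood, and epithelial lists, no gene in the table was at 0 in all day 0 libraries. The part of these cell type markers in the results below was not tested. Bulk RNA cannot tell fewer cells of a type from less RNA per cell.

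Egr1, on chromosome 18, was lower in the knockdown at days 0 and 3 and higher at day 5. Its normalized read counts in the control were 3802 and 3930 at day 0, 3500 and 3341 at day 1, 2754 and 2683 at day 3, 893 and 1038 at day 5, and 527 and 618 at day 7. In the knockdown they were 1341 and 1319 at day 0, 3127 and 3553 at day 1, 1769 and 1701 at day 3, 1810 and 1633 at day 5, and 779 and 493 at day 7. The control levels therefore stood in the order of the days, from the highest at day 0 to the lowest at day 7, with no overlap between neighbouring days. The knockdown started low, was highest at day 1, had overlapping libraries at days 3 and 5, and was lowest at day 7. At day 0 the knockdown mean was 34.4% of the control mean, a difference of -1.54 on the log2(value + 1) scale (SE 0.15, the same in every Egr1 comparison). At day 1 the libraries overlapped and the difference was -0.04 (limma adjusted p = 0.95). Egr1 was then lower in the knockdown at day 3, by 1.57-fold in the ratio of means (log2 difference -0.65, limma adjusted p = 0.0257), and higher at day 5, by 1.78-fold (0.83, limma adjusted p = 0.00277). The day 3 call was lost when any 1 of its 4 libraries was left out (adjusted p 0.109 to 0.144), with differences that stayed between -0.68 and -0.62. The day 5 call was lost without control replicate 1 of day 5 (difference 0.73, adjusted p = 0.0531).

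Egr2 and Egr3 had low values, and their standard errors were the widest of the 9 genes. The Egr2 libraries of the control ranged from 14.1 to 170 normalized read counts and those of the knockdown from 9.22 to 161, with the highest group mean at day 1 and the lowest at day 7 in both arms. Its means at day 1 were 147 ± 33.7 (SD, n = 2) in the control and 146 ± 21.9 (SD, n = 2) in the knockdown, so the arms overlapped at their shared highest day. At day 3 both knockdown libraries, 52.2 and 41.7, lay below both controls, 67.9 and 84.2, with a log2 difference of -0.69 (SE 0.40) that did not pass the test (limma adjusted p = 0.375). For Egr3 the knockdown libraries at day 0 held 6.20 and 10.96 normalized read counts against 31.6 and 39.1 in the control. One day later the order was the other way round, with 77.3 and 73.0 in the knockdown and 56.1 and 30.1 in the control (log2 difference 0.85, SE 0.35, limma adjusted p = 0.312). The Egr3 peak came at day 1 in the knockdown (mean 75.1 ± 3.02, SD, n = 2) and at day 3 in the control (69.7 ± 5.11, SD, n = 2). By day 7 the arms overlapped for both genes, with Egr3 means of 24.9 and 25.5.

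Nr4a1, on chromosome 15 from 101254269 to 101274795, was lower in the knockdown at day 0 and higher at day 5. The control libraries held 3738 and 4089 normalized read counts at day 0, 1457 and 1236 at day 1, 1000 and 1066 at day 3, 805 and 821 at day 5, and 699 and 640 at day 7. The knockdown libraries held 2068 and 2106 at day 0, 1342 and 1288 at day 1, 1031 and 1010 at day 3, 1059 and 985 at day 5, and 780 and 818 at day 7. The arms were thus apart at day 0, where the knockdown mean was 53.3% of the control mean, overlapped at days 1 and 3, and parted the other way at days 5 and 7. At day 5 Nr4a1 was higher in the knockdown by 0.33 on the log2 scale (SE 0.08, limma adjusted p = 0.0233). That call was lost when control replicate 1, control replicate 2 or knockdown replicate 1 of day 5 was left out (adjusted p 0.0772 to 0.195). At day 7 the difference was 0.26, with no overlap between the arms. Nr4a2, on chromosome 2 from 57106830 to 57124003, was the member whose arms overlapped at day 0, with 133 and 139 in the control and 132 and 178 in the knockdown. At day 5 its knockdown libraries, 63.7 and 57.5, lay above the controls, 29.6 and 47.1, and the difference of 0.68 (SE 0.29) did not pass the test (limma adjusted p = 0.173).

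**Figure D1:**
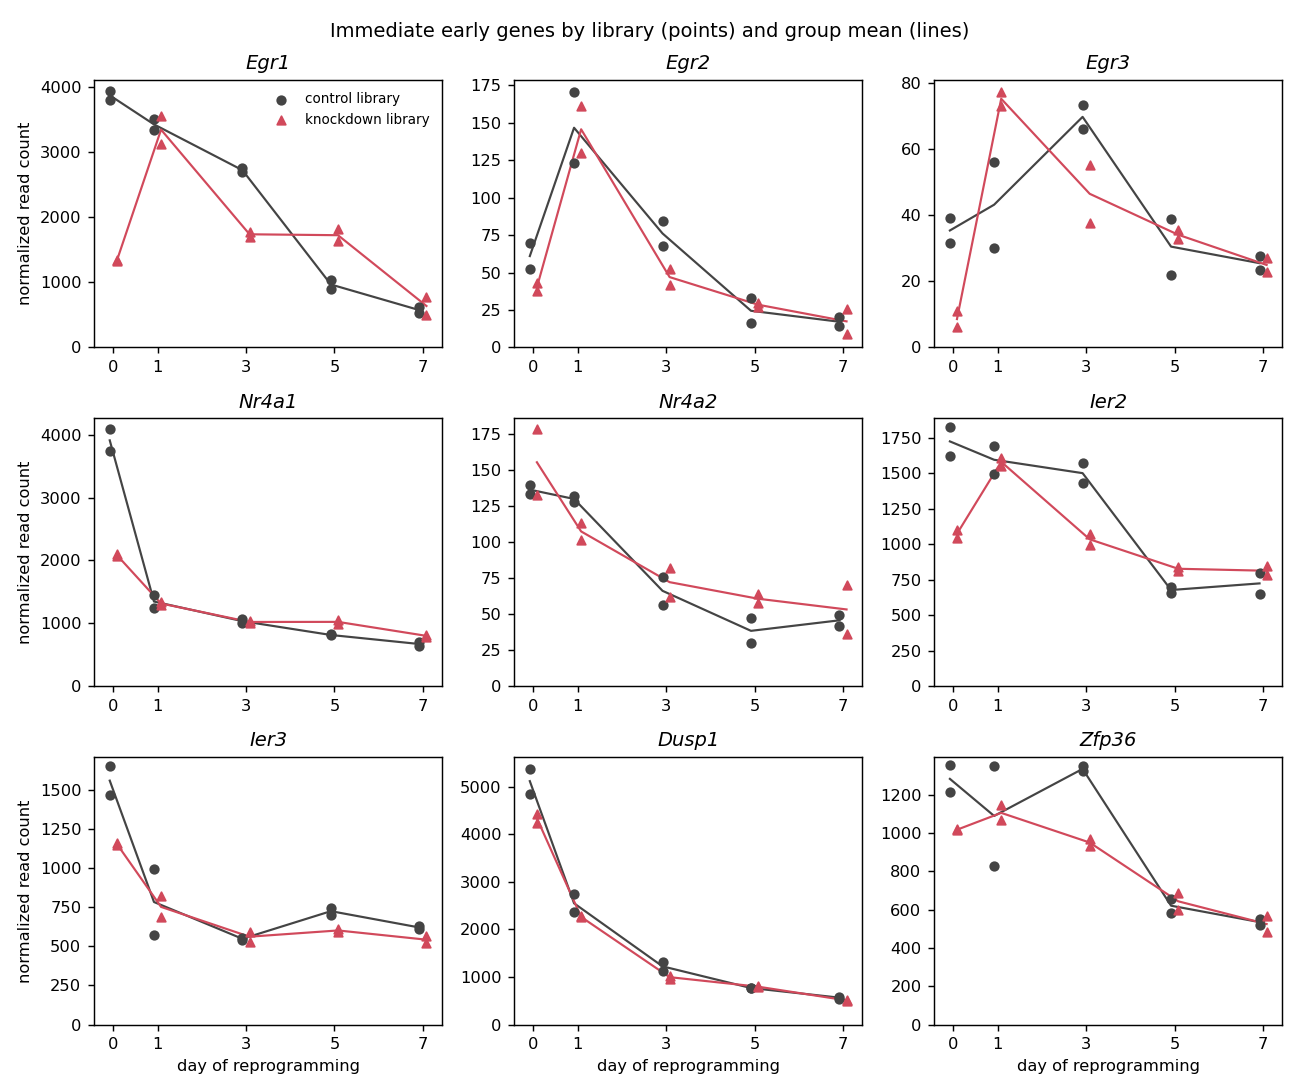
Normalized read counts (vertical axes, from 0, a separate scale for each gene) of the 9 genes against the day of reprogramming, with 1 point per library, circles for the control and triangles for the knockdown, and lines through the means of 2 libraries. Egr1 in the knockdown lies near 1330 at day 0, where the controls lie near 3866, then overlaps the control at day 1, lies below it at day 3 and above it at day 5.

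Ier2, on chromosome 8 from 84661331 to 84662852, was lower in the knockdown at days 0 and 3. Its control libraries held 1826 and 1621 normalized read counts at day 0, 1692 and 1496 at day 1, 1571 and 1429 at day 3, 655 and 699 at day 5, and 652 and 794 at day 7. Its knockdown libraries held 1100 and 1045, 1552 and 1608, 1074 and 993, 812 and 840, and 844 and 780 on the same days. Control levels at days 0, 1 and 3, whose neighbours overlapped, stood above those at days 5 and 7, which also overlapped, whereas in the knockdown day 1 alone was high. At day 3 Ier2 was lower in the knockdown by 1.45-fold (log2 difference -0.54, SE 0.10, limma adjusted p = 0.0088), with no overlap between the arms. The call was lost without control replicate 1 or without either knockdown replicate of day 3 (adjusted p 0.0514 to 0.0866). At day 5 the knockdown libraries were the higher ones, but the difference of 0.29 did not pass the test (limma adjusted p = 0.0914).

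Ier3, Dusp1 and Zfp36 were not called between the arms at day 1, 3 or 5. Dusp1, on chromosome 17 from 26505590 to 26562128, had the largest ratio of day 0 to day 7 of the 9 genes in both arms. Its control means went from 5115 ± 370.1 (SD, n = 2) at day 0 to 566 ± 26.8 at day 7 and its knockdown means from 4335 ± 137 to 509 ± 24.4, which are 11.1% and 11.7% of the day 0 level. The order of its levels followed the days in both arms, with no overlap between neighbouring days. At day 3 its difference between the arms was -0.29 (SE 0.09, limma adjusted p = 0.0734), with both knockdown libraries below both controls. Zfp36, on chromosome 7 from 28376784 to 28380253, stayed high in the control through day 3 (1348 and 1322) and was at 931 and 970 in the knockdown, a difference of -0.49 (SE 0.16, limma adjusted p = 0.1). When only the day 3 libraries were fitted, Zfp36 passed the test (adjusted p = 0.0136). Ier3, on chromosome 17 from 35821684 to 35822923, was the exception at day 5, where the knockdown libraries, 610 and 594, lay below the controls, 703 and 747 (log2 difference -0.27, SE 0.17, limma adjusted p = 0.406).

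Across the 9 genes, most levels were lower in the knockdown at day 0, and at day 1 no difference was called. At day 0, 8 of 9 genes had both knockdown libraries below both controls, where 27.5% of all genes did. Since the list was chosen on those libraries, this count describes the choice. The log2 differences ran from -1.96 (Egr3) to 0.17 (Nr4a2) with a median of -0.58. At day 1 the median was -0.01, against -0.004 for all genes, and 0 of 9 passed limma's test in either direction, where 0.121% of all genes were called lower and 0.0254% higher. At an unadjusted p under 0.05, 1 member passed. Without overlap, Egr3 was higher and Nr4a2 and Dusp1 were lower in the knockdown at day 1, where the share of all genes without overlap was not counted. At day 3, 7 of 9 differences were below 0, with a median of -0.49, and 2 genes, Egr1 and Ier2, were called lower, where 2.25% of all genes were. At day 5, 8 of 9 were above 0, with a median of 0.29, and 2 genes, Egr1 and Nr4a1, were called higher, where 5.83% of all genes were. At day 7 the median was -0.03. There Ier3 and Dusp1 lay below the controls without overlap (27.6% of all genes did) and Nr4a1 lay above them (28.6%). Each count of 2 rests on single libraries. The day 3 count was 0 or 1 with any 1 of its 4 libraries left out, and the day 5 count was 0 without control replicate 1 and 1 without control replicate 2 or knockdown replicate 1 of that day.

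**Figure D2:**
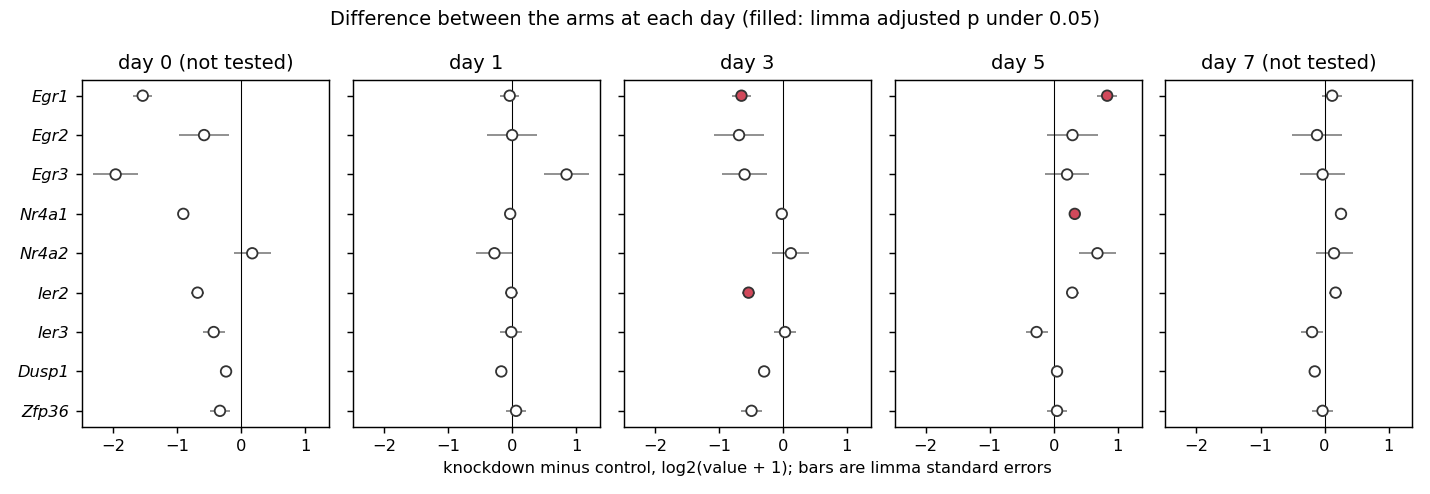
Knockdown minus control on the log2(value + 1) scale (horizontal axes) for each of the 9 genes at each day, with bars of 1 limma standard error and filled points for an adjusted p under 0.05. Points lie mostly left of 0 at days 0 and 3 and mostly right of 0 at day 5, with Egr1 and Ier2 filled at day 3 and Egr1 and Nr4a1 at day 5.

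Whether knockdown minus control differed in any way among days 1, 3 and 5 was tested with limma's F over the 3 days, which does not single out a pair of days. Egr1 and Ier2 passed, 2 of 9, where 1.76% of all genes did. For Egr1 F was 24.2 (limma adjusted p = 0.00988), and for Ier2 it was 17.4 (adjusted p = 0.0181). Between days 3 and 5 the difference between the arms moved by 1.48 for Egr1 and by 0.82 for Ier2 on the log2 scale, though the Ier2 difference at day 5 did not itself pass the test. The Egr1 call was lost without control replicate 1 of day 5 (adjusted p = 0.0515). The Ier2 call was lost without any 1 of 5 libraries, which were control replicate 1 of day 3, control replicate 1 of day 5, knockdown replicate 2 of day 3 and both knockdown replicates of day 5 (adjusted p 0.0581 to 0.0705). Averaged over days 1, 3 and 5, where opposite signs cancel, 0 of 9 members were called (1 at an unadjusted p under 0.05), whereas 5.93% of all genes were called lower and 7.65% higher. Without control replicate 2 of day 1, the count called lower was 3, and without control replicate 2 of day 3 it was 1. The count called higher was 1 without control replicate 1 of day 1.

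Within the arms, the levels of the 9 genes came down at different steps. The list was chosen for control levels lower at day 7 than at day 0, which favours falls at the steps between. The shares of all genes, which were not so chosen, are therefore no even measure for the counts below. From day 1 to day 3 in the control, Nr4a1 (-0.38), Nr4a2 (-0.98), Ier3 (-0.46) and Dusp1 (-1.06) fell, 4 of 9, where 17.6% of all genes fell. Without control replicate 1 of day 3 this count was 2, and the Ier3 difference was -0.07 without control replicate 1 of day 1. Between days 3 and 5 in the control, 8 of 9 fell, where 15.4% of all genes fell. The log2 differences were -1.67 for Egr2, -1.496 for Egr1, -1.219 for Egr3, -1.15 for Ier2, -1.11 for Zfp36, -0.79 for Nr4a2, -0.67 for Dusp1 and -0.35 for Nr4a1 (limma adjusted p between 8.96e-07 and 0.0483). Without control replicate 2 of day 3, 5 of the 9 were called. Ier3 went the other way, with 540 and 556 at day 3 and 703 and 747 at day 5, a difference of 0.40 that did not pass the test (limma adjusted p = 0.0901). From day 1 to day 3 in the knockdown, Egr2 (-1.61), Dusp1 (-1.18), Egr1 (-0.94), Ier2 (-0.61) and Nr4a1 (-0.36) fell, 5 of 9, where 14.3% of all genes fell. From day 3 to day 5 in the knockdown, Zfp36 (-0.56), Ier2 (-0.32) and Dusp1 (-0.32) fell, 3 of 9 against 7.2% of all genes, and 0 of 9 were called with any 1 of those 4 libraries left out. The Egr1 difference at that step was -0.01 ( limma adjusted p = 0.969), and Egr1 fell by 1.47 from day 5 to day 7 (limma adjusted p = 0.00045). The Egr1 call was lost when only those 4 libraries were fitted (adjusted p = 0.093). Dusp1 fell by 0.65 at the same step, so that 2 of 9 members were called where 0.108% of all genes were. The Dusp1 call was lost without knockdown replicate 1 or 2 of day 5 or replicate 1 of day 7 (adjusted p 0.0613 to 0.144). These steps share libraries with each other and with the comparisons between the arms.

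The steps at the ends of the course are descriptions. From day 0 to day 1, 5 of 9 genes were lower in the control without overlap (34.5% of all genes), led by Nr4a1 with -1.54, while Egr2 was higher by 1.25. Over the same day in the knockdown, 5 of 9 were higher without overlap (37.4% of all genes): Egr3 by 3.04, Egr2 by 1.83, Egr1 by 1.32, Ier2 by 0.56 and Zfp36 by 0.12. Nr4a1, Nr4a2, Ier3 and Dusp1 were lower in both arms at day 1 than at day 0. From day 5 to day 7 in the control, 5 of 9 were lower without overlap (27.8% of all genes), with Egr1 at -0.75. Over the whole course 9 of 9 were lower at day 7 than at day 0 in the control (40.8% of all genes) and 8 of 9 in the knockdown (39.5%). Egr3 in the knockdown was the exception, at 8.58 ± 3.37 at day 0 and 24.9 ± 3.07 at day 7 (SD, n = 2). The day 7 level of Egr1 was 14.8% of its day 0 level in the control and 47.8% in the knockdown, and for Nr4a1 these shares were 17.1% and 38.3%.

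The members fell into different courses when compared over all 20 libraries, which share the time course and the scaling, so that the correlations are descriptions. Among the pairs, Pearson's r on log2 values was highest for Nr4a1 and Dusp1 (0.92), Egr1 and Ier2 (0.90) and Ier2 and Zfp36 (0.90). It was -0.30 for Egr3 and Ier3, and between -0.13 and -0.11 for Egr3 with Nr4a1, Nr4a2 and Dusp1. Nr4a1 thus resembled Dusp1 more than its relative Nr4a2 (0.81). Egr1 resembled its relative Egr2 (0.89) nearly as much as Ier2, and its relative Egr3, which had low values, less (0.52). Among genes outside the list with a mean of at least 20, those most like Egr1 were Zfp36l2, a relative of Zfp36 (0.91), Sdc1 (0.91), Armc5 (0.91), Col7a1 (0.91) and Ints1 (0.90). Most like Nr4a1 were Mgat1 (0.98), Aars (0.97), Fbxw8 (0.97), Pofut2 (0.97) and Srf, which encodes serum response factor (0.97).

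Other immediate early genes were taken from 2 further lists, one of transcription factors and one of other functions. These lists and those below were chosen with earlier results of these data known, so the shares of all genes are no even measure for their counts. The share of all genes below 0 at day 0 was not counted. Of 20 transcription factor genes 19 were in the table, and 17 of them were lower in the knockdown at day 0 (median -0.29, against -0.02 for all genes), led by Fosb (-1.02), Atf3 (-0.73) and Junb (-0.67). Of these 19, 0 were called at day 1, 3 were lower at day 3 (2.25% of all genes), and 3 were lower and 2 higher at day 5, where 2.9% of all genes were called lower and 5.83% higher. Over the mean of days 1, 3 and 5, 2 of 19 were lower and 1 higher (5.93% and 7.65% of all genes): the zinc finger factor Klf2 was lower (-0.61, limma adjusted p = 0.000132), the AP-1 subunit Jund was lower (-0.26, adjusted p = 0.000904) and the AP-1 subunit Fosl1 was higher (0.40, adjusted p = 0.0054). Fos and Fosb, the AP-1 partners of Jun, differed by -0.90 (limma adjusted p = 0.00771) and -1.63 (adjusted p = 0.00466) at day 3 and were called lower, while at day 5 Fos differed by 0.47 and Fosb by -0.28, neither of which passed the test. Jun and Junb were not called between the arms at day 1, 3 or 5. All 26 genes of other functions were in the table. At day 0, 22 of them were lower (median -0.34), led by the cytokine Lif (-0.92), the EGF receptor inhibitor Errfi1 (-0.69) and the antiproliferative gene Btg2 (-0.64). At day 3, 4 of 26 were called higher, where 2.51% of all genes were, and at day 5, 7 were higher and 1 lower (5.83% and 2.9% of all genes). Over the mean of the 3 days 7 were higher and 1 lower (7.65% and 5.93% of all genes). Of these the EGF receptor ligand Hbegf (0.51), the matrix-associated growth factor gene Ctgf (0.50) and Ier5l (0.41) were higher (limma adjusted p between 5.92e-05 and 0.0293).

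A further list holds genes known as targets of ERK signalling or as feedback on it, and 14 of 14 were in the table. It too was chosen with earlier results of these data known. The shares of all genes are therefore no even measure for its counts. At day 5, 11 of 14 were called higher in the knockdown and 0 lower, where 5.83% of all genes were called higher. The median difference was 0.44 against -0.01 for all genes, and 1 of the 14 lay below 0. Dusp4, a nuclear phosphatase of MAP kinases, differed by 1.02, and the inhibitors of receptor tyrosine kinase signalling Spry1 and Spry4 by 0.84 and 0.73 (limma adjusted p between 1.14e-05 and 0.00489). The count of 11 was 6 without control replicate 1 of day 5 and 7 without knockdown replicate 1 of day 5. At day 1, 0 of 14 were called, and at day 3, 2 were higher (2.51% of all genes). Over the mean of days 1, 3 and 5, 8 of 14 were higher (7.65% of all genes), with 0.54 for Dusp4, 0.41 for Spry1 and 0.40 for Spry4. At day 0, 12 of 14 lay below the control (median -0.15, against -0.02 for all genes), led by Spry1 (-0.57), Dusp5 (-0.51) and Spry2 (-0.44). The share of all genes below 0 at day 0 was not counted, and no test was made there. From day 3 to day 5, 11 of 14 fell in the control (median -0.57), where 15.4% of all genes fell, and 8 of 14 fell in the knockdown (median -0.29), where 7.2% did.

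Of 23 listed components of the Ras-ERK cascade itself 20 were in the table. Over the mean of days 1, 3 and 5, 2 of 20 were called lower, among them the kinase gene Mapk3 (-0.24, limma adjusted p = 0.0244), and 0 higher, where 5.93% of all genes were called lower and 7.65% higher. Among 16 genes for SRF, its ternary complex factors and coactivators and the partners of Egr and Nr4a proteins, all in the table, 1 was lower and 3 were higher over the same mean, against the same shares of all genes. The 3 were the ternary complex factor Elk3 (0.19), the SRF coactivator Mkl2 (0.19) and the CREB coactivator Crtc3 (0.18), with limma adjusted p between 0.00336 and 0.0495. The difference between days 1, 3 and 5, called for 1.76% of all genes, was called for 4 of the 19 transcription factor genes (Fos, Fosb, Fosl2 and Klf2). It was called for 4 of the 26 genes of other functions (Btg2, Cyr61, Ctgf and Hbegf). Of the 14 ERK feedback and target genes it was called for 4 (Dusp4, Dusp6, Spry2 and Spry4). It was called for 0 of the 20 cascade and 0 of the 16 SRF genes.

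**Figure D3:**
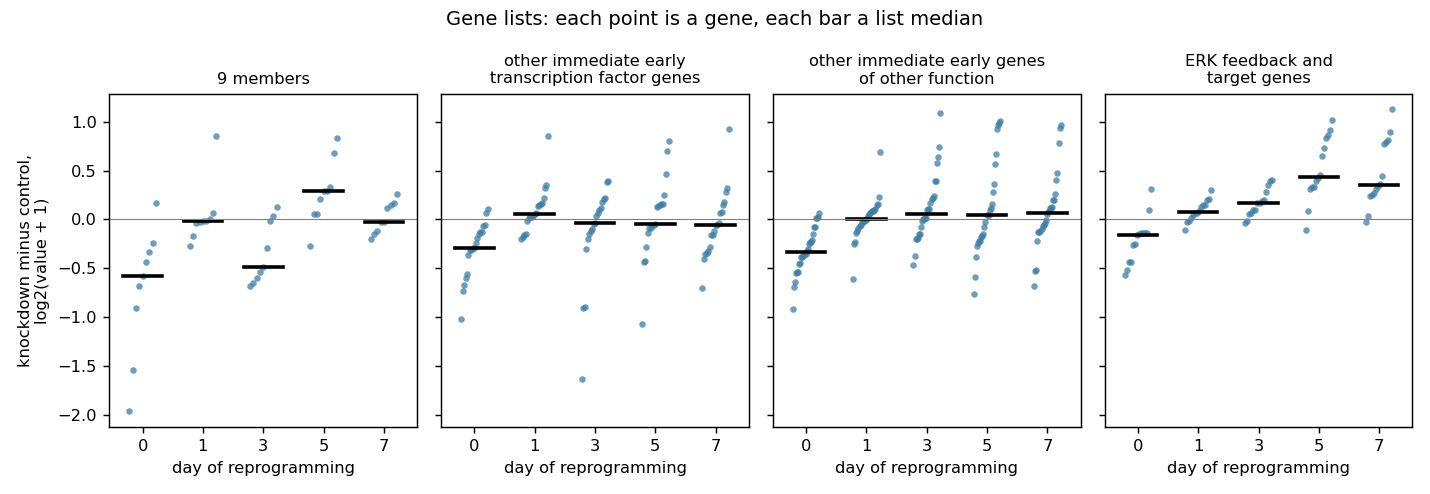
Knockdown minus control on the log2(value + 1) scale (vertical axis) by day for the 9 members and 3 further lists, with 1 point per gene and a bar at the median. The members' median moves from -0.58 at day 0 to -0.01, -0.49, 0.29 and -0.03 at days 1, 3, 5 and 7. That of the ERK feedback and target genes moves from -0.15 at day 0 to 0.44 at day 5.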

How the data were processed

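The authors deposited 1 table of signal values, normalized read counts for 15757 genes in 20 columns. The submitters' processing notes name mm10, RSEM 1.2.22 and STAR 2.5.2a, then Trim Galore 0.4.4, as well as DESeq2 1.22.0, while the role of each, the scaling and the annotation are not given in the sources used here. The lowest maximum of any gene is 7.61, so low genes had been removed. Only 36.8 to 62.9% of values up to 20 read steps lay within 0.1 of a whole step, so whole reads could not be recovered and no count model was used. Of the gene identifiers, 15665 (99.4%) matched GENCODE, and 0 pairs of columns were identical.

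Values were taken as log2(value + 1), which understates differences of low genes. One limma fit (limma 3.58.1, R 4.3.3) with a mean per group held all 20 libraries and left 10 residual degrees of freedom. Its variances were moderated with the trend and robust options, and p-values were adjusted over all genes by Benjamini-Hochberg, with a threshold of 0.05. The differences between days in knockdown minus control were tested with limma's F. SE is limma's standard error, and SD is over 2 libraries. Scripts were tested on simulated data.

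The members and all gene lists were chosen with earlier results of these data known. Named genes were all members, Ddx10, per list the 3 largest called differences over the mean of days 1, 3 and 5 and the 3 largest at day 0, the 5 genes most like Egr1 and like Nr4a1, the AP-1 genes Fos, Fosb, Jun and Junb, and, named after their values were seen, the genes with a called difference between days. Not every gene that this rule gives is reported here. Alternatives were quantile scaling, pseudocounts of 0.1 and 5, a filter of 20 in 2 libraries, the replicate number as a block, the compared libraries alone and each library left out. Figures were drawn with matplotlib 3.10.9.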

Additional observations from a re-analysis of the deposited data

Results flagged for a closer look

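For 5 members, Egr1, Egr3, Nr4a1, Ier2 and Dusp1, a change between days in the sign of knockdown minus control was flagged. It was flagged where limma's F over days 1, 3 and 5 passed, or where day 0 or day 7 was involved and no test was made. Egr1 and Ier2 passed limma's F (adjusted p = 0.00988 and 0.0181), which tests any difference among the days and not a change of sign. Between days 3 and 5 their differences moved by 1.48 and 0.82 on the log2 scale. The Ier2 difference at day 5 did not itself pass the test (limma adjusted p = 0.0914). In the untested cases both knockdown libraries lay on one side of the controls at the first day and on the other side at the second. The list was chosen for low knockdown levels at day 0, which favours upward moves from that day. The share of all genes that changed side in this way was not counted. From day 0 to day 5 the difference moved by 2.37 for Egr1, 1.23 for Nr4a1, 0.97 for Ier2 and 0.29 for Dusp1. It moved by 2.81 for Egr3 from day 0 to day 1 and by 1.16 for Nr4a1 from day 0 to day 7. For Dusp1 it moved by -0.20 from day 5 to day 7 (from 0.05 to -0.15). Other changes of side without overlap among days 1, 3 and 5, whose share over all genes was not counted, did not pass limma's F. They were those of Egr3 from day 1 to day 3 (-1.45, adjusted p = 0.26), Nr4a2 from day 1 to day 5 (0.96, adjusted p = 0.402), and Dusp1 from days 1 and 3 to day 5 (0.22 and 0.34, adjusted p = 0.298).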

How the results depend on the processing

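Of the other settings, quantile scaling changed the sign of the near-zero day 1 difference of Egr2 (-0.012) and moved the members' median from day 0 to day 7 in the control from -1.56 to -2.21, where it shifted the median of all genes from 0.09 to -0.08 (in the knockdown from 0.08 to -0.09). The cause was not tested. With only the compared libraries, which leaves fewer degrees of freedom, 1 member was called higher from day 3 to day 5 in the control and 1 lower from day 5 to day 7 in the knockdown. Deviations of same-numbered replicates correlated between -0.08 and 0.15 across the arms. With 2 libraries in a group, such weak correlations cannot settle whether the numbers pair the samples. With the replicate number as a block over days, the counts between the arms were 2 lower at day 3 and 2 higher at day 5, as without it. With a replicate block nested in day, 1 member was lower at day 3, 0 were called for the difference between days, 1 was higher from day 3 to day 5 in the control and 0 were lower from day 5 to day 7 in the knockdown. With single libraries left out, the members called lower ranged from 0 to 1 at day 3 between the arms, 0 to 3 for the mean of days, 2 to 4 (day 1 to 3) and 5 to 7 (day 3 to 5) in the control, and 0 to 0 (day 3 to 5) and 1 to 2 (day 5 to 7) in the knockdown. Members called higher ranged from 0 to 2 at day 5, 0 to 1 for the mean of days and 0 to 2 from day 1 to 3 in the control. The difference between days was called for 0 to 3 members, and 6 to 9 ERK feedback and target genes were higher at day 5. The members' median ranged from -0.77 to -0.38 at day 0 and from -1.15 to -0.84 for day 7 against day 0 in the knockdown. Signs of differences that had not passed the test also changed when a library was left out. At day 1 these ranged from -0.129 to 0.055 (Egr1), -0.234 to 0.236 (Egr2), -0.148 to 0.089 (Nr4a1), -0.099 to 0.078 (Ier2), -0.403 to 0.38 (Ier3) and -0.292 to 0.418 (Zfp36). At day 3 they ranged from -0.063 to 0.029 (Nr4a1), -0.089 to 0.34 (Nr4a2) and -0.052 to 0.117 (Ier3), and at day 5 from -0.196 to 0.783 (Egr2), -0.189 to 0.607 (Egr3) and -0.048 to 0.151 (Zfp36). Where an arm kept 1 library, it was assumed to vary like the other groups. Egr2, Egr3 and Nr4a2 are limited by their low values.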

Other observations

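Heat shock genes, known for the response to misfolded protein, lay on both sides of the control at day 0. All 11 of the list were in the table, and 5 of 11 differences were below 0, with a median of 0.02. The largest were those of the chaperones Hsp90aa1 (0.48), Hsph1 (0.41) and Dnaja1 (0.39), all higher in the knockdown. Over the mean of days 1, 3 and 5 the chaperones Hspa8 (-0.25, limma adjusted p = 0.00191) and Hsp90aa1 (-0.13, adjusted p = 0.0468) were lower and 0 were higher, where 5.93% and 7.65% of all genes were. The difference between days was called for 2 of 11, Hspa8 and Hspb1, and for 1.76% of all genes.

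Summed levels of the other marker lists are given as ranges over 2 libraries. The pluripotency list (12 of 12 in the table) summed to 126 to 185 in the control and 216 to 266 in the knockdown at day 0, with Utf1 and Dppa4 at 0 in every day 0 library, and to 6487 to 7102 and 7842 to 8813 at day 7. Most of the day 0 sums was L1td1, at 96.6 to 233 over the day 0 libraries. Over all libraries Tdh reached 3857 and L1td1 3273, and the next highest, Sall4, reached 431. The sums therefore describe these 2 genes more than the list as a set. Endothelial markers (9 of 9) summed to 1253 to 1380 in the day 0 control and 1488 to 1672 in the day 0 knockdown. For neural markers (7 of 9) the sums at day 0 were 3487 to 4013 and 3842 to 4012, for skeletal muscle markers (3 of 8) 1843 to 2752 and 2036 to 2274, and for adipocyte markers (3 of 6) 760 to 847 and 983 to 1061. Most of the adipocyte sums was Lpl, at 602 to 933 over the day 0 libraries.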
